A study of Mus musculus with 14 samples.

Results

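The measurements described here are those of 4 microRNAs (miRNAs) that are known from epithelial cells, miR-31, miR-375, miR-203 and miR-205, in the developing mouse lung. They were taken as the rows with TaqMan assay numbers 185, 564, 507 and 509, and all 4 were among the 516 deposited rows. The run files list assays by miRNA name and the value table lists them by number, so that the names of these 4 rows rest on the manufacturer's numbering. Each name was listed in 1 well of card A in all 14 run files of that card, and in no well of card B.

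Total RNA came from whole lungs, pooled, of the outbred mouse strain ICR, labelled female at every age, with no treatment and no altered allele given in the labels. Lungs were taken at 4 embryonic ages (E12, E14, E16 and E18, in days from the plug, which was day 0), at 2 postnatal ages (P2 and P10, in days) and in the adult, 2 samples an age. After multiplexed reverse transcription the RNA was measured by quantitative PCR on TaqMan Low Density Array cards, with 1 small RNA assay per well. A pool of whole lungs mixes all cell types of the organ, so that fewer cells of a type and less miRNA per cell cannot be told apart. The epithelial content of the samples was not checked here, because the rows of other marker miRNAs could not be named.

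MiRNAs are short RNAs that lower the translation and stability of messenger RNAs, which they recognise mainly through the seed, the bases near their 5′ end. The lung epithelium grows by branching in the embryo, forms the first saccules late in gestation, and divides the saccules into alveoli after birth. MiR-205 and miR-203 are best known from basal cells and stratified epithelia, where miR-205 represses the ZEB transcription factors, which drive loss of the epithelial state, and miR-203 promotes differentiation of skin keratinocytes. MiR-375 is abundant in pancreatic islet and neuroendocrine cells, and miR-31 is known from epithelia and from squamous tumours.

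The sequences are shown to name the strand taken as the one measured, and to compare the seeds. They are from RefSeq on GRCm38.p6, and capitals mark the seed (bases 2 to 8, counted from the 5′ end). MiR-375-3p is named only, and its hairpin precursor is shown without capitals.
miR-31-5p: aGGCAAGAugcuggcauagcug
miR-203-3p: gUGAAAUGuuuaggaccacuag
miR-205-5p: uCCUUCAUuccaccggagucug
Mir375 hairpin: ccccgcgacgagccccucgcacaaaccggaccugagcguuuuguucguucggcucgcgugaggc
The 3 mature seeds differed from each other, and none was found in another of the 1738 mature mouse miRNAs of the table. These 3 miRNAs therefore are not of 1 seed family, and the seed of miR-375-3p was not compared.

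They also did not lie together in the genome (GRCm38.p6). The Mir31 hairpin lay at chr4:88910557-88910662 on the minus strand, overlapping the long noncoding RNA gene Gm49890. The Mir205 hairpin lay at chr1:193507463-193507530 on the minus strand, overlapping the long noncoding RNA gene Mir205hg. The Mir375 hairpin, at chr1:74900658-74900721 on the minus strand, overlapped no other annotated gene and lay 1350 bases from Cfap65. The Mir203 hairpin, at chr12:112130880-112130955 on the plus strand, overlapped a second miRNA gene, Gm51289. Exon and intron structure of these genes was not used here.

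Levels are given as ΔCT, the difference in threshold cycle between the miRNA and U6, the small nuclear RNA that served as reference. The ΔCT falls as the level rises, by 1 cycle for each doubling if PCR is fully efficient. Log2 changes are given with the sign turned, so that a positive change is a rise. Between 272 and 335 rows were measured per sample and 219 in all 14, and blank cells are called not measured. The mean ΔCT of these 219 assays ranged from 9.94 in E18 replicate 1 to 11.6, and it moved with age. Relative to U6 the median log2 change of the 350 assays tested was 0.99 between E12 and E18 and -1.13 between E18 and P2. Each member is therefore also given after scaling every sample to the mean of the 219 assays (the global mean). Values fell on whole-cycle steps. Within each sample the decimals of the measured members agreed within 0.06 cycle, so that differences under 1 cycle were not resolved. The SD of an age can therefore be near 0 by rounding.

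MiR-31 rose from E12 to the adult, miR-205 was measured throughout the embryo and was mostly not measured after birth, and miR-375 and miR-203 did not pass the test over the 7 ages. By limma's moderated F test, with p-values adjusted over the 350 assays and a call below 0.05, the adjusted p was 0.00688 for miR-31, 2.26e-04 for miR-205, 0.0672 for miR-375 and 0.400 for miR-203 (0.0147, 4.30e-04, 0.220 and 0.126 with the global mean). Of all assays 56.9% were called (58.3% with the global mean), so that 2 of 4 is close to the background. MiR-205 passed the filter through its embryonic ages alone and its later values rest on the floor given below, so that its call adds nothing to its detection pattern. A lowest age mean below 10 and a range of age means above 2.2 cycles were then also required, against U6 alone. Of the 350 assays 80 (22.9%) remained, with miR-31 the single one of the 4. MiR-205 failed on the lowest mean alone, 12.2, and miR-375 on the F test and on its range of 1.99. With the global mean, to which these limits were not applied, the range of miR-31 was 2.19996 cycles, just under 2.2.

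**Figure D1:**
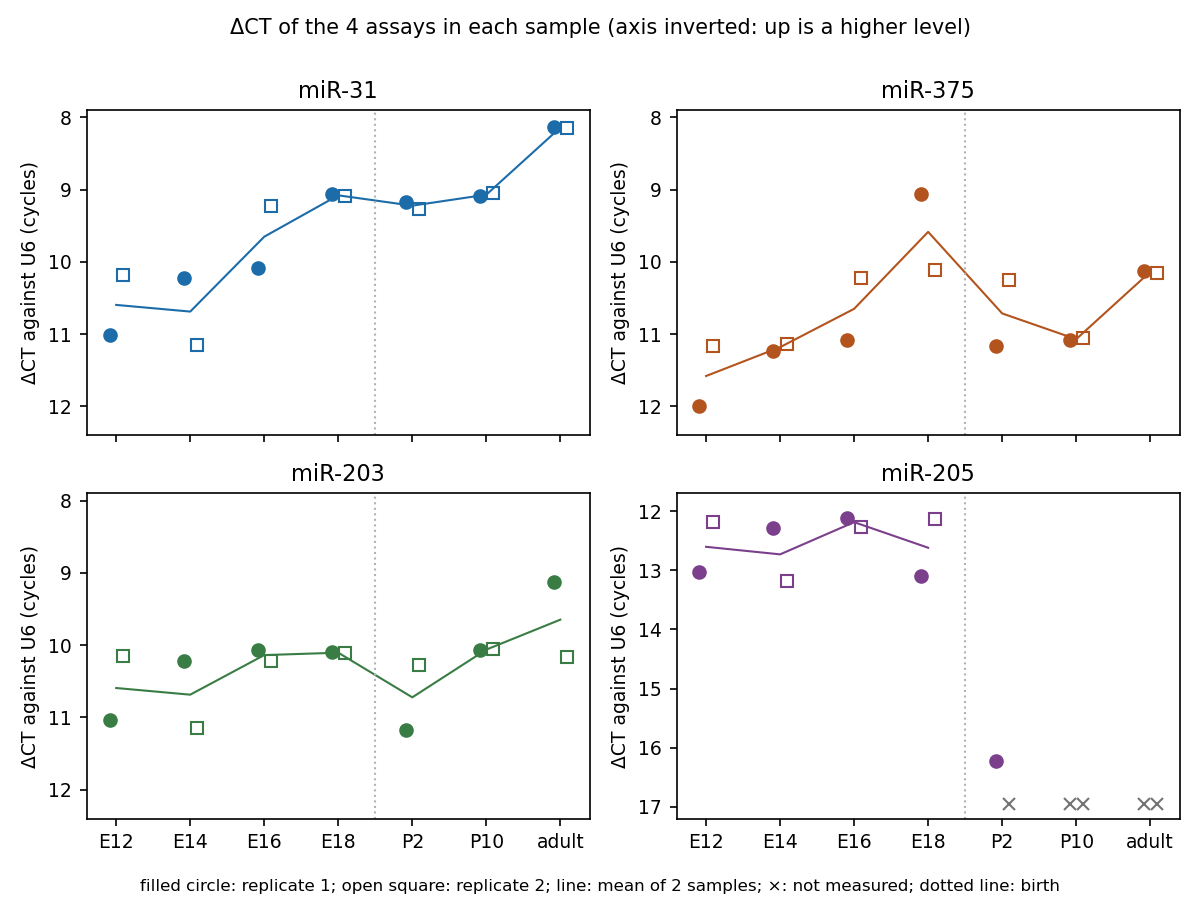
ΔCT against U6 in cycles (axis inverted, so that up is a higher level) at the 7 ages, with 1 panel per miRNA, 1 point per sample and lines through the means of 2 samples. MiR-31 reached 8.13 and 8.15 in the adult, its lowest values, and miR-205 lay between 12.1 and 13.2 in the 8 embryonic samples, at 16.2 in P2 replicate 1 and was not measured in the other 5 postnatal samples (crosses).

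MiR-31 had the widest range of age means, 2.55 cycles, among the 3 miRNAs measured in every sample. Its ΔCT was 11.0 and 10.2 at E12, 10.2 and 11.1 at E14, and 10.1 and 9.22 at E16. It then was 9.07 and 9.10 at E18 and 9.18 and 9.27 at P2. At P10 it was 9.09 and 9.05, and the adult samples had 8.13 and 8.15. The adult samples were the highest levels of the course. No sample at E12 or E14 reached the level of any sample from E18 on, and the 6 samples at E18, P2 and P10 lay on 1 step of the cycle.

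From E12 to the adult miR-31 rose 5.48-fold (log2 change 2.45, SE 0.43, limma adjusted p = 0.00123). Under global mean scaling the rise was 4.07-fold (log2 change 2.03, SE 0.42, adjusted p = 0.00317). Of all assays 24.6% were called higher in this comparison against U6 and 21.7% with the global mean. The mean of the 3 postnatal ages exceeded that of the 4 embryonic ages by 1.19 on the log2 scale (SE 0.23, limma adjusted p = 0.00211), and by 1.28 with the global mean (adjusted p = 0.00109), where 20% and 24.9% of all assays were called higher. The 8 embryonic samples ranged from 9.07 to 11.1 with a median of 10.1, and the 6 postnatal ones from 8.13 to 9.27 with a median of 9.07, so that these groups overlapped.

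When miR-31 rose within this course depended on the scaling. Against U6 its level at E18 exceeded that at E12 by 1.52 on the log2 scale (SE 0.43, limma adjusted p = 0.0262), and its change from E18 to adult was 0.94 (adjusted p = 0.133). With the global mean the change from E12 to E18 was 0.14 (adjusted p = 0.833), and that from E18 to adult was a rise of 1.88 (adjusted p = 0.00730). From E12 to E18, 30% of all assays were called higher against U6 and 11.4% with the global mean, and from E18 to adult 5.43% and 15.7%. The call at E18 against U6 was lost without E12 replicate 1 (log2 change 1.10, limma adjusted p = 0.128) and without either E18 sample (adjusted p = 0.115 and 0.0777). None of the 6 successive steps of miR-31 was called. The widest were 1.04 from E14 to E16 (limma adjusted p = 0.309) and 0.93 from P10 to the adult (limma adjusted p = 0.242), for which 0.857% and 3.71% of all assays were called higher.

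The order of the miR-31 age means against U6 was adult, P10, E18, P2, E16, E12 and E14, from the highest level to the lowest. The means of P10, E18 and P2 were 9.07, 9.08 and 9.22, closer than 1 cycle, and no neighbours in this order differed by more than that step.

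MiR-205 was the one member that was lost from measurement. Its ΔCT was 13.0 and 12.2 at E12, 12.3 and 13.2 at E14, 12.1 and 12.3 at E16, and 13.1 and 12.1 at E18. After birth it was 16.2 in P2 replicate 1 and was not measured in P2 replicate 2 or in any P10 or adult sample. Against U6 all 8 embryonic samples lay within 1.07 cycles and had a higher level than the single postnatal value, by at least 3.04 cycles. With the global mean the embryonic samples were less even and lay nearer to it. They ranged from 11.8 to 14.2, the latter in E18 replicate 1, against 15.7 in P2 replicate 1.

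It was thus measured in 8 of 8 embryonic and 1 of 6 postnatal samples. The other 3 members were measured in all 14. Among the 269 assays measured in all 8 embryonic samples, 8 (2.97%) were measured in at most 1 postnatal sample, and 15 (5.58%) were not measured in any P10 or adult sample. MiR-205 belonged to both groups. Its embryonic median ΔCT was 12.3, and 165 of the 269 assays had this median or a higher level, of which 4, miR-205 included, were not measured in any P10 or adult sample. The 15 assays had embryonic medians from 10.6 to 18.1, with a median of 13.7, and 3 of them had a higher embryonic level than miR-205.

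**Figure D2:**
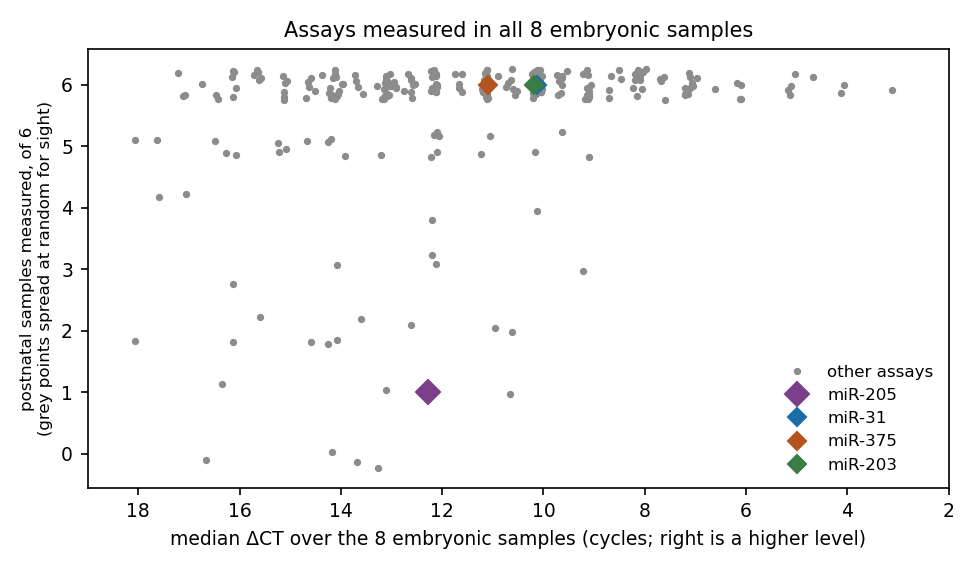
Median ΔCT over the 8 embryonic samples in cycles (axis reversed, so that right is a higher level) against the number of the 6 postnatal samples in which an assay was measured, 1 point for each of the 269 assays measured in all 8 embryonic samples. MiR-205 (purple diamond) lay at 12.3 with 1 postnatal sample, and the other 3 miRNAs lay in the row of 6.

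With blanks at the highest deposited ΔCT, 19.9, the fitted log2 change of miR-205 from E12 to adult was -7.25 against U6. Both adult values are that floor, so that the size and the call of this change follow from the floor and the filter, and no test is given for it. With each blank at the highest ΔCT measured in its own sample, the level was at least 79.9-fold lower in the adult and at least 37.8-fold lower at P10 than at E12. At P2 the bound was 33.5-fold with the blank of replicate 2 included, while the measured replicate 1 alone was 12.3-fold below the mean of E12. These bounds assume that blanks were reactions below the detection limit. They also assume that the highest ΔCT of a sample, taken over both cards, applies to miR-205, which was on card A alone. Neither was tested, and failed reactions would void the bounds.

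The first lower value of miR-205 after E18 was at P2. With blanks at the floor, the fitted log2 change from E18 to P2 was -5.42 against U6 and -4.22 with the global mean. The blank of P2 replicate 2 is that floor, so that no test is given for this change. Without that sample the log2 change against U6 was -3.60. The value without P2 replicate 1, -7.23, is the distance from the E18 mean to the floor. Of all assays 23.1% were called lower in this comparison against U6 and 2% with the global mean. In the 2 samples of these ages whose card A run files were last modified on 1 day, E18 replicate 2 and P2 replicate 1, miR-205 fell by 4.08 on the log2 scale, and the mean of the 219 assays by 1.22. Within the embryo, from E12 to E18, its log2 change was -0.02 against U6 and -1.39 with the global mean (limma adjusted p = 1 and 0.367), and 2% and 15.7% of all assays were called lower. The SEs of these changes, 0.97 and 1.08, include the spread between the measured value and the floor at P2. These tests therefore cannot show that a fall before birth was absent. With blanks as missing the SE against U6 was 0.51.

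MiR-375 had its highest level against U6 at E18. Its ΔCT was 12.0 and 11.2 at E12, 11.2 and 11.1 at E14, 11.1 and 10.2 at E16, and 9.06 and 10.1 at E18. After birth it was 11.2 and 10.3 at P2 and 11.1 in both samples of P10, and the adult samples had 10.1 and 10.2. E18 replicate 1 was the single sample below 10, about 1 cycle from its replicate and from the adult samples. The 8 embryonic samples ranged from 9.06 to 12.0 and the 6 postnatal ones from 10.1 to 11.2, within the embryonic range.

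Against U6 miR-375 was 3.98-fold higher at E18 than at E12 (log2 change 1.99, SE 0.50, limma adjusted p = 0.0169). With the global mean the log2 change was 0.62 (adjusted p = 0.264), and the E18 peak was no longer seen, since the age mean then was highest in the adult. The mean of the 219 assays rose by 1.00 on the log2 scale between the E16 and E18 samples of 1 card A day and miR-375 by 1.59, from 2 samples and 1. That 1 sample was E18 replicate 1, and over all samples of these ages the rises were 0.79 and 1.06. The call was lost without E12 replicate 1 and without E18 replicate 1 (limma adjusted p = 0.0924 and 0.123). In the adult miR-375 was 2.72-fold above E12 against U6 (log2 change 1.44, SE 0.50, limma adjusted p = 0.0409), a call close to the threshold. Under global mean scaling it was 2.02-fold above E12 (log2 change 1.01, SE 0.38, adjusted p = 0.0513) and was not called. The call against U6 was also lost without E12 replicate 1 (log2 change 1.02, adjusted p = 0.189) and without any single sample of E14, P10 or adult. Between postnatal and embryonic ages the difference was 0.11 (SE 0.27, limma adjusted p = 0.740).

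The order of the miR-375 age means against U6 was E18 (9.59), adult (10.1), E16 (10.7), P2 (10.7), P10 (11.1), E14 (11.2) and E12 (11.6), and no step between neighbours in this order exceeded 1 cycle.

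MiR-203 had the narrowest range of age means against U6, 1.07 cycles, while with the global mean its range was 1.40 and that of miR-375 was 1.09. Its ΔCT was 11.0 and 10.2 at E12, 10.2 and 11.2 at E14, 10.1 and 10.2 at E16, and 10.1 and 10.1 at E18. After birth it was 11.2 and 10.3 at P2 and 10.1 in both samples of P10, and the adult samples had 9.12 and 10.2. Against U6 10 of the 14 samples lay on the step at 10, and the highest level, in adult replicate 1, was 1 cycle from its replicate. The order of its age means was adult, P10, E18, E16, E12, E14 and P2, with no 2 neighbours further apart than 1 cycle.

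The log2 change of miR-203 from E12 to adult was 0.95 (SE 0.51, limma adjusted p = 0.160) and 0.52 with the global mean (adjusted p = 0.256). With the global mean it was lowest at E18, with an age mean of 11.0 against 9.60 in the adult, and the rise from E18 to adult was called (log2 change 1.40, SE 0.36, limma adjusted p = 0.0145). It was 0.46 against U6 (adjusted p = 0.524), so that the call rests on the scaling. No other comparison of miR-203 was called against U6 or with the global mean.

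**Figure D3:**
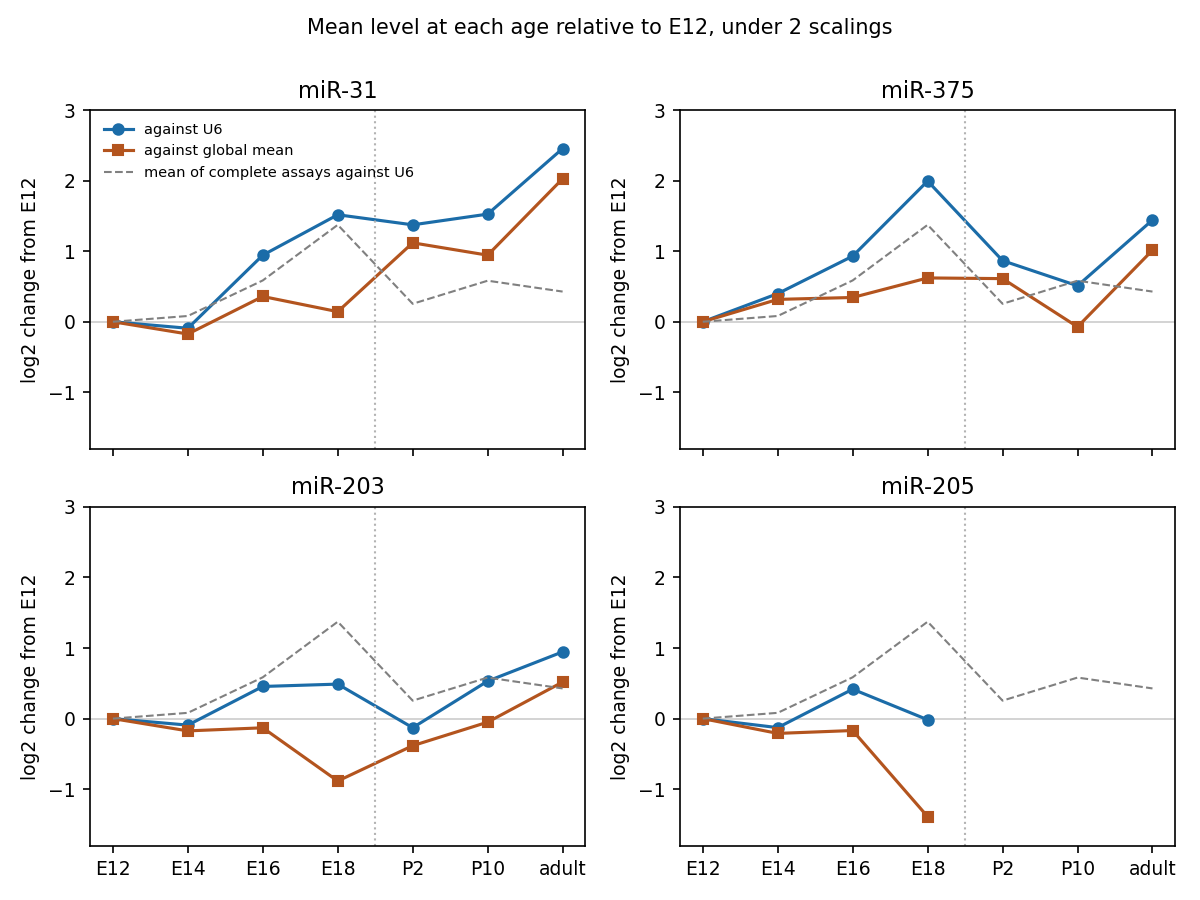
Log2 change of the mean level from E12 at the 7 ages for each miRNA, against U6 (circles) and against the global mean (squares), with the mean of the 219 assays against U6 as a dashed line, for ages with both samples measured. From E12 to E18 miR-31 changed by 1.52 against U6 and 0.14 with the global mean, and miR-375 by 1.99 and 0.62, while both scalings put miR-31 in the adult above E12, by 2.45 and 2.03.

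The ratio of 2 assays within a sample does not depend on U6 or on the global mean, and its change between ages shows whether 2 miRNAs moved differently. The 3 pairs among the members measured in all samples were compared between the 8 embryonic and the 6 postnatal samples. The mean log2 ratio of miR-31 over miR-375 was 0.74 ± 0.47 (SD, n = 8) before birth and 1.83 ± 0.41 (SD, n = 6) after, a 2.12-fold difference (exact permutation test over samples, two-sided, p = 0.00200, Benjamini-Hochberg p over the 3 pairs = 0.00599). It lay on the step of 2 cycles in 5 of 6 postnatal samples and in 0 of 8 embryonic ones, and P2 replicate 2 was the postnatal sample on the step of 1.

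The ratio of miR-31 over miR-203 went from 0.38 ± 0.53 (SD, n = 8) to 1.33 ± 0.52 (SD, n = 6), a 1.94-fold difference (exact permutation p = 0.0130, adjusted p = 0.0195). This ratio had moved before birth. It lay on 0 in both samples of E12 and E14 and in E16 replicate 1, and on 1 in E16 replicate 2 and both E18 samples. The ratio of miR-375 over miR-203 was -0.37 ± 0.76 (SD, n = 8) and -0.50 ± 0.56 (SD, n = 6), a difference of -0.13 (exact permutation p = 0.845, adjusted p = 0.845), and its highest value, 1 cycle, was in E18 replicate 1. The samples of 1 age were treated as separate values in the tests of all 3 ratios. Their p-values are too small if samples of 1 age resemble each other.

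**Figure D4:**
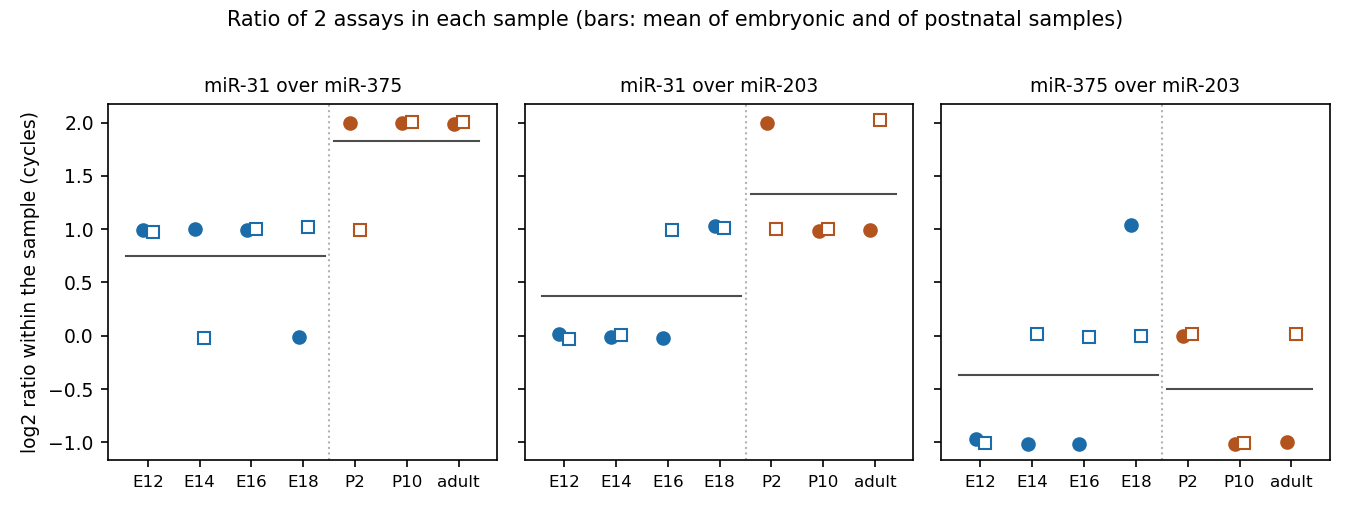
Log2 ratio of 2 assays within each sample in cycles at the 7 ages (circles replicate 1, squares replicate 2), with bars at the mean of the 8 embryonic and of the 6 postnatal samples. The ratio of miR-31 over miR-375 had means of 0.74 and 1.83, and that of miR-375 over miR-203 -0.37 and -0.50.

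The ratio of miR-203 over miR-205, the pair known from basal cells and stratified epithelia, was the steadiest in the embryo. It lay on the step of 2 cycles in 7 of the 8 embryonic samples and on 3 in E18 replicate 1. In P2 replicate 1, the single postnatal sample with both, it was 5. The ratios of miR-31 and of miR-375 over miR-205 were higher at E18 than at E12. That of miR-31 lay on 2 in both samples of E12 and E14, and on 4 and 3 at E18. That of miR-375 lay on 1 in both E12 samples, and on 4 and 2 at E18. These differences were not tested. MiR-203 itself was measured in all 6 postnatal samples, in which its ΔCT ranged from 9.12 to 11.2.

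Run files of card A were last modified on 7 days, and 5 of the 6 steps between ages had samples of both ages on 1 day. Between such samples miR-31 changed by 0.92 on the log2 scale from P10 to adult (1 sample each) and miR-375 by 0.93, against 0.93 for both over all samples. MiR-203 changed by 0.93 between these 2 samples against 0.41 over all. Other steps also differed. MiR-31 changed by 0.37 from E12 to E14 on 1 day against -0.09 over all samples. MiR-375 changed by -0.83 from P2 to P10 against -0.36, and miR-203 by -1.06 from E18 to P2 against -0.62. Some were close, as miR-31 from E16 to E18 (0.59 against 0.57). No day held samples of E14 and E16, where miR-31 had its widest step, and none held both E12 and adult, so that day and age could not be separated there.

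The assays whose ΔCT followed miR-31 most closely over the 14 samples, among the 219 measured in all, were those numbered 602 and 2112, with a Pearson r of 0.96 and 0.94 (0.94 and 0.86 with the global mean). Their log2 changes from E12 to adult were 2.43 and 7.95, and the files pair neither number with a name. These correlations are a description, and the points share ages, U6 values and whole-cycle steps. For miR-375 and miR-203 the assays closest against U6 had an r of 0.91 and 0.80, and the same assays had 0.72 and 0.60 with the global mean, by which they were not ranked. For miR-205, measured in 9 samples, none was computed.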

How the data were processed

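The authors deposited ΔCT, a log2 measure: threshold cycle of an miRNA less that of U6, from TaqMan cards A and B. Per their methods, reactions with no CT or one above 35 were set to 35. The deposited values hold blank cells, and whether these are such reactions is not given in the sources used here. The deposited run files gave assay names and the order of the days of last modification. In E14 replicate 2, 5 near-zero values (none of a member) were made missing.

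Minus ΔCT was fitted with limma 3.58.1 (R 4.3.3), 1 mean per age over all 14 samples. Blanks were put at the highest value of the scaling in use, which was 19.9 against U6. An assay was kept if 1 age or more had it measured in both samples (350). Benjamini-Hochberg adjustment ran over these assays in each comparison. Ratios of members were tested by exact permutation (3003 divisions of the samples). Scripts were tested on simulated data. Alternatives were global mean scaling, blanks as missing, a floor per sample, no filter, only the 219 assays, the ordinary test, a variance trend, a replicate block, a random block for card A day and each sample left out.

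By rule, the text names the 4 members and the assays most like each by r. Members and lists were chosen with earlier results of these data known. The marker lists could not be named among the rows and are not analysed here. The sources do not state that the 2 samples of an age are separate pools, so p-values cover the spread between samples alone, which may be technical. Having 2 samples an age limits the precision.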

Additional observations from a re-analysis of the deposited data

How the results depend on the processing

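The calls of miR-31 over the 7 ages, from E12 to adult and between embryonic and postnatal ages held under every alternative run, and miR-203 stayed uncalled in these. MiR-31 from E12 to adult ranged from 2.04 to 2.87 on the log2 scale with single samples left out. For miR-375 the change from E12 to adult lost its call with global mean scaling (1.01), the ordinary test (1.44), the replicate block (1.44, adjusted p = 0.0511) and the card A day block (1.42), and in 7 of the 14 fits without 1 sample (1.02 to 1.86). Its adjusted p over the 7 ages passed with blanks as missing (0.0376), among the 219 assays alone (0.00936) and without E18 replicate 2 (0.0498 to 0.163 over the 14 fits). Its difference between postnatal and embryonic ages ranged from -0.044 to 0.26. The difference in the ratio of miR-375 over miR-203 was 0.17 without the E18 samples and ranged from -0.23 to 0.074 with 1 sample left out.

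With the global mean these uncalled changes turned: miR-31 from E16 to E18 (-0.22), E18 to P2 (0.98) and P2 to P10 (-0.18), miR-375 from E18 to adult (0.39), and miR-203 from E16 to E18 (-0.75), E18 to P2 (0.50) and E12 to E18 (-0.88). The called change of none of the 4 turned. The values were the same over the 219 assays alone, and with the card A day block, both chosen after seeing the data, they were -0.17, 0.96, -0.21, 0.40, -0.74, 0.51 and -0.92, with miR-205 from E14 to E16 at -0.040. The day block against U6 put miR-31 and miR-203 from E12 to E14 at 0.0087 and 0.0099.

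With 1 sample left out, the change from E12 to E14 ranged from -0.55 to 0.37 for miR-31, -0.022 to 0.82 for miR-375, -0.56 to 0.37 for miR-203 and -0.58 to 0.32 for miR-205. MiR-375 from P2 to P10 ranged from -0.81 to 0.10. MiR-203 ranged from -0.042 to 0.11 from E16 to E18, -0.11 to 0.94 from P10 to adult and -0.066 to 0.98 from E18 to adult. MiR-205 ranged from -0.91 to 0.046 from E16 to E18 and -0.49 to 0.46 from E12 to E18. Without P2 replicate 2 its fitted change from P2 to P10 was -3.63. Both P10 samples were blank, so that this is the distance from 1 measured value to the floor, and no test is given for it. The replicate numbers did not pair the samples (r of the replicate deviations between ages from -0.42 to 0.24, median -0.02, over 21 pairs of ages), and the block changed no other call of the 4 miRNAs. A card B day block was not run. The cause of these changes was not tested. Whole-cycle steps and 2 samples an age limit all changes near 1 cycle, and blanks limit miR-205 after birth.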
